A study of Mus musculus with 8 samples.

Results

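The nuclear genes for the subunits of oxidative phosphorylation were examined in livers of TgC6hp55 mice and of wild type (WT) mice. A gene was included when its symbol in the array annotation began with Nduf followed by a, b, c, s or v and a digit, was Sdha, Sdhb, Sdhc or Sdhd, or began with Uqcr, with Cox and a digit between 4 and 8, or with Atp5. Of the 25697 probes on the array, 98 met this rule, and they stood for 79 genes: 34 of complex I, 3 of complex II, 8 of complex III, 18 of complex IV and 16 of complex V. TgC6hp55 mice carry a transgene in which the promoter of the collagen gene Col6a1, active in mesenchymal cells, drives the coding sequence of human TNF receptor 1 joined to a minigene of human growth hormone. The line descends from 1 founder, and both groups were male C57BL/6J mice aged 21 weeks. Total liver RNA of 4 TgC6hp55 and 4 WT mice was hybridised to Illumina MouseRef-8 v2.0 BeadChips, with 1 array per liver, on which the brightness of a probe's beads reports the level of its mRNA.

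Oxidative phosphorylation takes place in the inner mitochondrial membrane. Complex I (NADH dehydrogenase) and complex II (succinate dehydrogenase) pass electrons to ubiquinone, complex III passes them on to cytochrome c, and complex IV (cytochrome c oxidase) passes them to oxygen. The proton gradient that complexes I, III and IV build is used by complex V, the ATP synthase. Liver is rich in mitochondria, and several subunits of complex IV exist as a form found in most tissues and a form of heart and skeletal muscle. Subunits that the mitochondrial genome encodes are not covered by the symbol rule.

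The label was checked against the symbols themselves. Ndufs5-ps is annotated as a transcribed pseudogene, Ndufa4 carries a complex I name but is now regarded as a subunit of complex IV, and Cox7a2l is known as a factor that joins complexes III and IV. A gene was tested when a probe was detected (detection p under 0.05 against the negative control beads) on at least 4 of the 8 arrays, and the brightest such probe represented it. This left 69 genes: 33, 3, 6, 12 and 15 of complexes I, II, III, IV and V. They were read among 8540 features tested in all. The mean intensity of an array was 112 to 224 in TgC6hp55 livers and 167 to 179 in WT livers, and 83 to 85 of the 98 probes were detected on each array. Of 9 hepatocyte markers 7 were tested and none passed the test. Their summed levels were 41035 to 42665 in TgC6hp55 livers and 43068 to 43973 in WT livers, with all TgC6hp55 livers lower. In such a sum the brightest probes weigh most. Of the 7 tested genes, 4 were higher and 3 lower in TgC6hp55 livers, with a median log2 difference of 0.03. At an unadjusted p under 0.05 (limma), 1 was higher (Alb) and 2 were lower (Cps1 and Pck1), which is 42.9%, against 24.4% of all features. The probes of Alb and Pck1 were dim, with mean log2 levels of 5.74 and 5.56 in TgC6hp55 livers and 5.37 and 5.95 in WT livers. In bulk liver RNA, fewer cells of a type and less RNA per cell cannot be told apart.

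Regulatory sequence of the genes was examined next. The only gene of the family called below, Cox7a1, belongs to a pair of complex IV isoforms, of which the other, Cox7a2, was not called. Cox7a1 encodes the subunit VIIa of heart and skeletal muscle and Cox7a2 the VIIa form of liver and most other tissues. The 250 bases before the start of each, from RefSeq on GRCm38.p6, hold none of the motifs of transcription factors searched for below, which would stand in capitals. They lie at chr7:30183921-30184170 (plus strand) for Cox7a1 and at chr9:79759854-79760103 (minus strand) for Cox7a2.
Cox7a1: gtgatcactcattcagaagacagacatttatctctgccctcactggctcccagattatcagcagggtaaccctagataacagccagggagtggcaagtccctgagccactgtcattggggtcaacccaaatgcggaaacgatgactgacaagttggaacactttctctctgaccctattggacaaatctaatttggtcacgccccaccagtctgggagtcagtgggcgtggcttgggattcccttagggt
Cox7a2: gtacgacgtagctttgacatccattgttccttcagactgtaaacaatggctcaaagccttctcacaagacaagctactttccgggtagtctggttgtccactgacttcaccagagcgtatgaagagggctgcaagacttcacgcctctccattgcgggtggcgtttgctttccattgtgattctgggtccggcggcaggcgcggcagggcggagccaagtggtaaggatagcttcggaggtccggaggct

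Such motifs were more frequent in the promoters of the family as a whole. The windows ran for 250 bases before and 50 bases after the start, on both strands, and 69 windows of 64 of the 79 genes were matched, against 32851 windows of all genes. The letters GCGCATGCG, bound by NRF1, a regulator of respiratory chain genes, were in 10.1% of the windows of the family and in 1.75% of all windows. TCAAGGTCA, bound by ESRRA, an orphan nuclear receptor that works with PGC-1alpha, was in 2.90% against 0.423%. CCGGAAGT, bound by GABPA, was in 7.25% against 3.89%, and GCCATNTT, bound by YY1, in 24.6% against 6.05%. No motif contains the letters of another. A match describes the letters and shows no binding. As examples, 30 bases around the NRF1 motif of Atp5g2 (chr15:102671070-102671099, minus strand) and Cox6a1 (chr5:115349101-115349130, minus strand) and around the ESRRA motif of Atp5g3 (chr2:73911359-73911388, minus strand, motif on the opposite strand of the gene) are shown with the motif in capitals.
Atp5g2: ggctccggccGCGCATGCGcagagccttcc
Cox6a1: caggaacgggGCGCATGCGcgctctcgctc
Atp5g3: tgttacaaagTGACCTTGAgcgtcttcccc

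Few oxidative phosphorylation genes changed between TgC6hp55 and WT livers. Of the 69 genes, 1 was higher and 0 were lower at an adjusted p under 0.05 (limma, Benjamini-Hochberg adjustment over all features), where 6.48% of all features were higher and 4.51% lower. The gene that rose was Cox7a1, whose adjusted p was 0.0518 with median scaling. At an unadjusted p under 0.05, in either direction, 8 genes (11.6%) passed, against 24.4% of all features. The median log2 fold change, as TgC6hp55 minus WT throughout, was -0.02, beside -0.01 over all features, and the median size of a change was 0.092, beside 0.149. The median depended on the scaling between arrays: with median scaling it was -0.16, beside -0.06 over all features, and -0.17, -0.27 and -0.16 for complexes I, IV and V, and with median scaling over the probes detected on all arrays, an alternative chosen after seeing the data, it was -0.09, beside 0.01. Among the other 68 genes the log2 fold changes ran between -0.31 and 0.29. A change of at least 0.5 in size was seen for 1.45% of the genes and for 9.16% of all features.

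**Figure D1:**
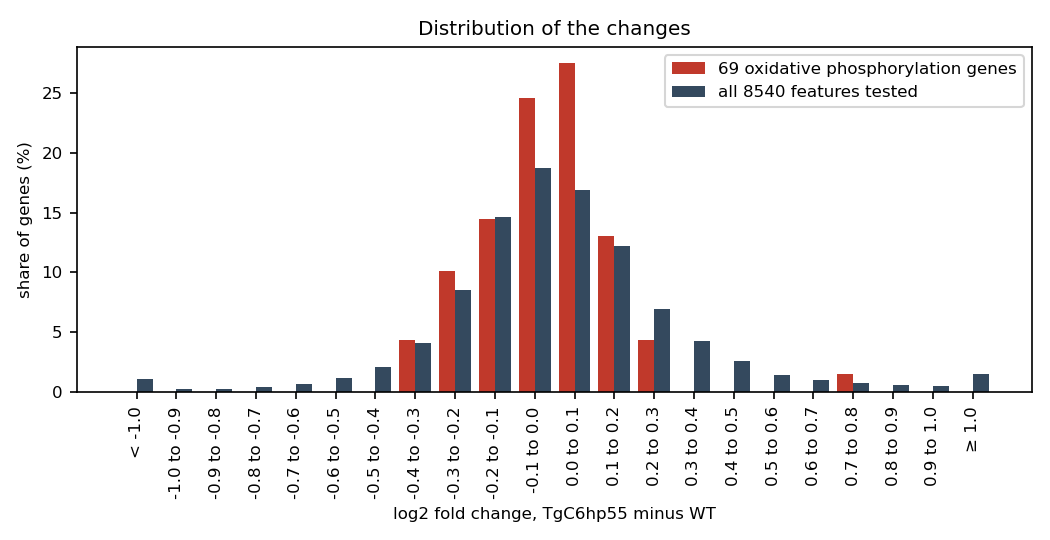
Share of genes (vertical axis, percent) by log2 fold change, TgC6hp55 minus WT (horizontal axis), for the 69 oxidative phosphorylation genes (red) and all 8540 features tested (dark blue). Apart from Cox7a1 at 0.76, the genes lie between -0.31 and 0.29, while 9.16% of all features changed by 0.5 or more in size.

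The width of the intervals bears on how firmly this can be put. For 60 of the 69 genes (87.0%) the 95% interval of the change lay within 0.5 of zero on the log2 scale, compared with 64.5% of all features. The family is bright on the array: its median log2 level over all livers was 10.76, against 6.68 for all features, and its median standard error 0.102, against 0.123. An adjusted p above the threshold does not show that a gene was unaltered, and the intervals give the sizes that remain possible. The groups did not overlap, with all TgC6hp55 livers higher, for 4 genes (5.80%), beside 9.20% of all features, and with all TgC6hp55 livers lower for 4 genes (5.80%), beside 7.55%.

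**Figure D2:**
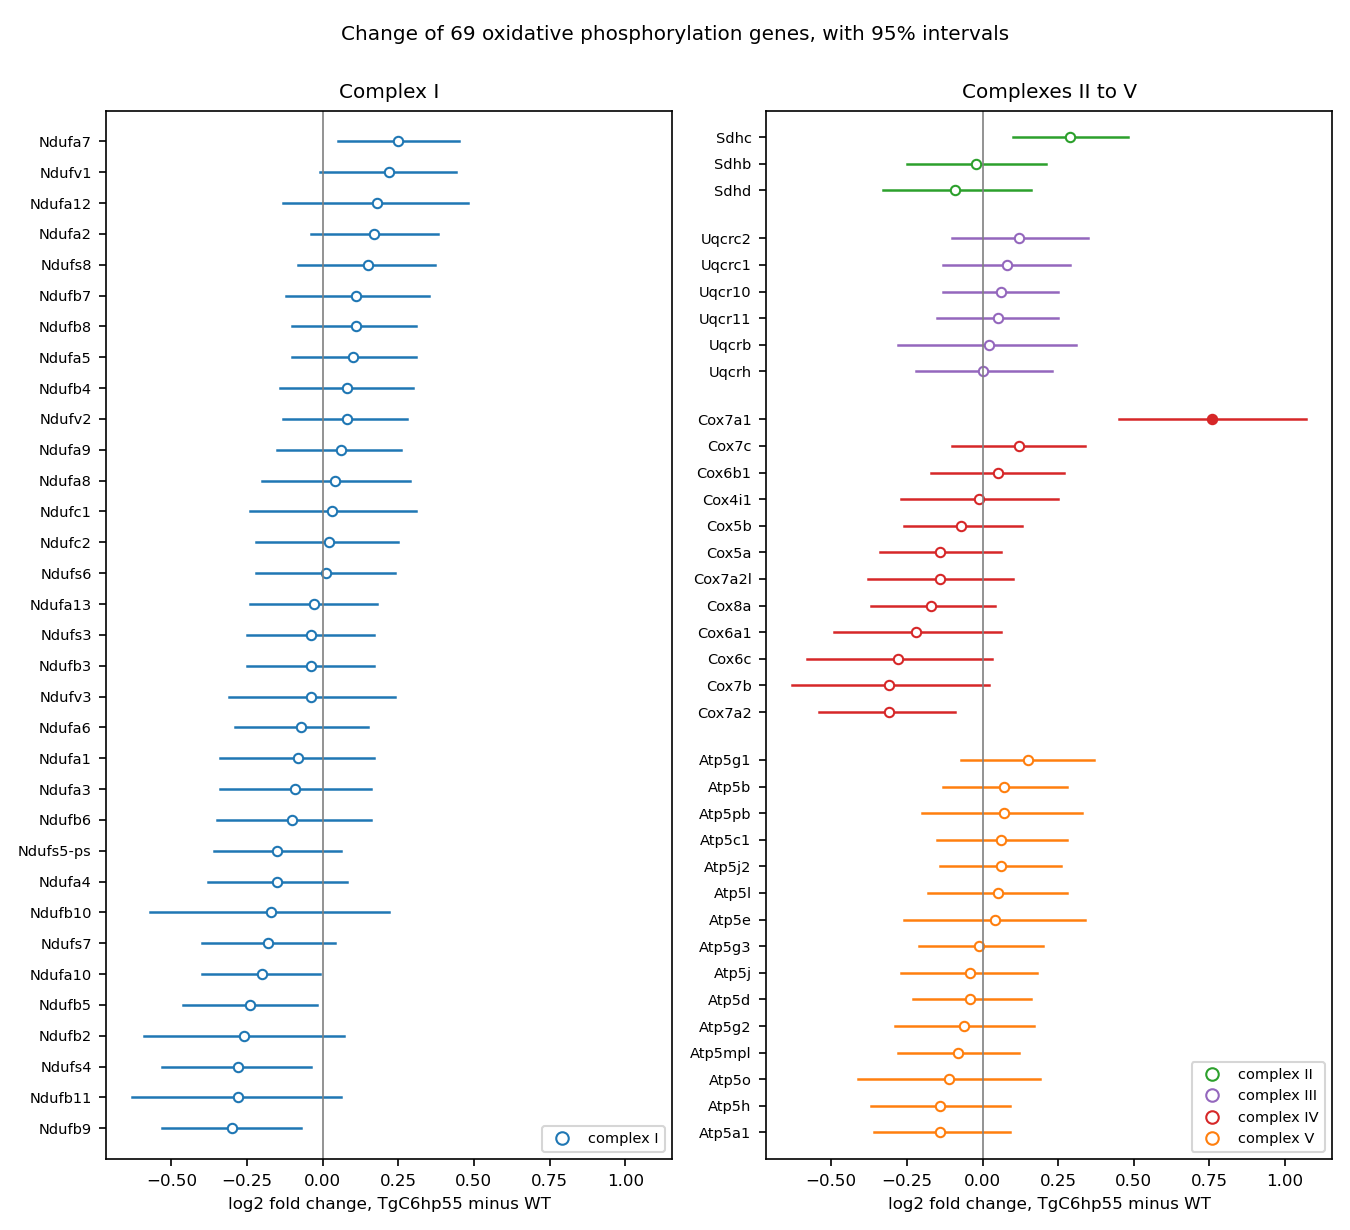
Log2 fold change (TgC6hp55 minus WT, horizontal axis) of each of the 69 genes by respiratory complex, sorted within it; lines are 95% intervals (limma), a filled point marks an adjusted p under 0.05 and open points the others. Cox7a1, at 0.76 with an interval of 0.45 to 1.07, is the only filled point.

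Complex I, the entry point for NADH, held 33 tested genes, of which 0 were called, and 15 had a positive and 18 a negative log2 fold change (median -0.04). Ndufv1, the core flavoprotein that oxidises NADH, had log2 levels of 11.59, 11.48, 11.53 and 11.78 in TgC6hp55 livers and 11.32, 11.27, 11.46 and 11.45 in WT livers. The TgC6hp55 livers were all above the WT livers and the difference of 0.22 (standard error 0.10) had an adjusted p of 0.216. Ndufs7, an iron-sulphur core subunit, lay the other way: 10.58, 10.56, 10.44 and 10.56 in TgC6hp55 livers and 10.59, 10.61, 10.88 and 10.77 in WT livers, at -0.18 (standard error 0.10) with an adjusted p of 0.305. Over the 5 tested core subunits, which carry the electron transfer, the median was 0.08, and over the 28 other genes with a complex I name, among them Ndufa4 and Ndufs5-ps, it was -0.04.

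Among those other genes, Ndufa7, an accessory subunit, gave the largest positive difference, 0.25 (standard error 0.09, adjusted p = 0.115), with levels of 10.67 to 10.89 in TgC6hp55 livers and 10.45 to 10.57 in WT livers. The largest negative one was that of Ndufb9, a membrane arm subunit, with levels of 8.14, 8.18, 8.19 and 8.40 in TgC6hp55 livers and 8.33, 8.63, 8.59 and 8.56 in WT livers. Here the highest TgC6hp55 liver reached into the WT range. Its difference of -0.30 (standard error 0.11, adjusted p = 0.0959) was followed by that of Ndufb11, another subunit of the membrane arm, at -0.28 (standard error 0.16, adjusted p = 0.296), with 4.87 to 5.36 in TgC6hp55 livers and 5.10 to 5.71 in WT livers. The Ndufb11 signal was low, at intensities of 9 to 31 in TgC6hp55 and 18 to 36 in WT livers before normalization. Its other probe was detected on 0 arrays.

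Ndufs4, an accessory subunit that is lost in a form of Leigh syndrome in humans, was singled out after its values were seen because it has 4 probes, all tested. All 4 were lower in TgC6hp55 livers, by log2 differences of -0.42, -0.31, -0.28 and -0.22, with adjusted p-values of 0.057, 0.0617, 0.153 and 0.298 when each probe entered the test on its own. The probe with the difference of -0.42 had levels of 8.67, 8.91, 8.91 and 8.43 in TgC6hp55 livers and 9.22, 9.05, 9.05 and 9.28 in WT livers, with no overlap between the groups. For the probe with -0.31 the groups were also apart, at 9.30 to 9.45 in TgC6hp55 and 9.60 to 9.82 in WT livers. The groups of the probe with -0.22 overlapped. The probe that represents the gene, the brightest, had 10.28, 10.27, 10.54 and 10.08 in TgC6hp55 livers against 10.68, 10.57, 10.55 and 10.49 in WT livers, where the third TgC6hp55 liver lay above the lowest WT liver. No probe passed the threshold.

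**Figure D3:**
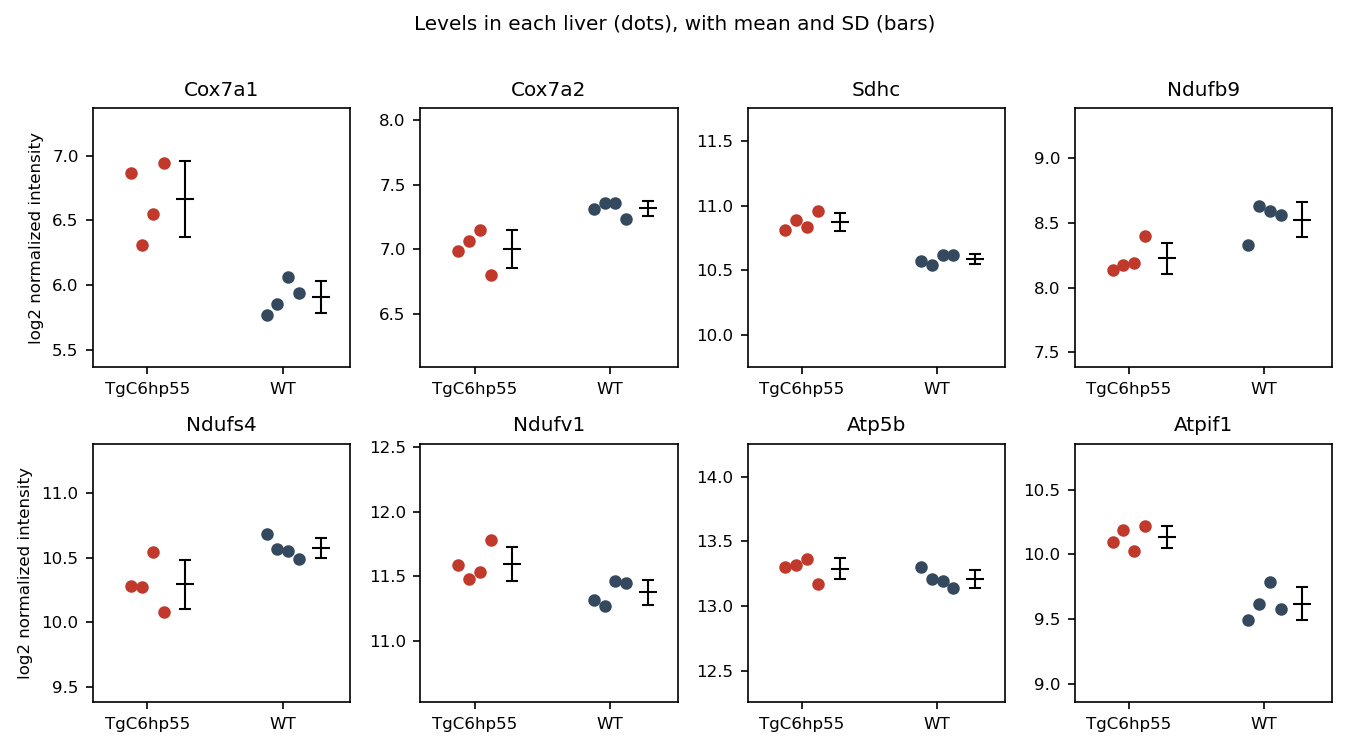
Log2 normalized intensity (vertical axis, each panel spanning 2 log2 units) in each liver (dots) for 7 subunit genes and for Atpif1, with TgC6hp55 livers in red on the left and WT livers in dark blue on the right; the bars give mean and SD (n = 4 each). Cox7a1, Cox7a2, Sdhc, Ndufv1 and Atpif1 separate the groups, and Ndufb9, Ndufs4 (by its brightest probe) and Atp5b overlap. Of these genes only Cox7a1 and Atpif1 had an adjusted p under 0.05 (limma).

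For complex II, the link to the citric acid cycle, 3 genes were tested and 0 were called. Sdhc, a membrane anchor, had 10.81, 10.89, 10.83 and 10.96 in TgC6hp55 livers and 10.57, 10.54, 10.62 and 10.62 in WT livers. The groups did not overlap, and the difference of 0.29 (standard error 0.09, interval 0.10 to 0.48) had an adjusted p of 0.0595, just above the threshold. Sdhb, the iron-sulphur subunit, differed by -0.02 (standard error 0.11, adjusted p = 0.935) and Sdhd, the other anchor, by -0.09 (standard error 0.11, adjusted p = 0.698). Sdhc passed in 4 of the 20 alternative settings, at an adjusted p of 0.0486 with a detection p under 0.01 as the filter.

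Complex III had 6 tested genes, of which 0 were called, and their log2 fold changes of 0.00 to 0.12 were the narrowest spread of the 5 complexes. Uqcrc2, a core protein, gave 11.65, 11.62, 11.70 and 11.48 in TgC6hp55 livers and 11.66, 11.47, 11.49 and 11.33 in WT livers, a difference of 0.12 (standard error 0.10, adjusted p = 0.511), with overlapping groups. Uqcrc1, the other core protein, differed by 0.08 (standard error 0.10, adjusted p = 0.68). The median of complex III was 0.05 and turned negative, to -0.10, with median scaling.

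In complex IV, where electrons reach oxygen, 12 genes were tested, 1 was called higher and 0 lower. Cox7a1 had log2 levels of 6.87, 6.31, 6.55 and 6.94 in TgC6hp55 livers and 5.77, 5.85, 6.06 and 5.94 in WT livers. All TgC6hp55 livers lay above all WT livers, and the probe was detected on all 8 arrays. The means were 6.67 ± 0.29 in TgC6hp55 livers and 5.90 ± 0.12 in WT livers (SD, n = 4 each), which is 0.76 higher on the log2 scale (standard error 0.14, adjusted p = 0.00526), or 1.7-fold (95% interval 1.37 to 2.11). With median scaling the change was 0.71 and did not pass (adjusted p = 0.0518). Before normalization the intensities were 88, 66, 115 and 64 in TgC6hp55 livers and 38, 42, 53 and 44 in WT livers, so the signal was low in both groups. The offset added before the logarithm understates the change of so dim a probe.

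Cox7a2, the other form of subunit VIIa, pointed the opposite way. It had 6.99, 7.06, 7.15 and 6.80 in TgC6hp55 livers and 7.31, 7.36, 7.36 and 7.23 in WT livers, with no overlap. The change of -0.31 on the log2 scale, with a standard error of 0.10 and an interval of -0.54 to -0.09, did not pass (adjusted p = 0.0752). The difference between both probes' log2 values, whose own size has no meaning between probes, was 1.07 greater in TgC6hp55 than in WT livers, at -0.75 to 0.13 in TgC6hp55 and -1.54 to -1.29 in WT livers. This shift was not tested.

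No other muscle form of a complex IV subunit was detected. The probes of Cox6a2 and Cox8b, the heart and skeletal muscle forms of subunits VIa and VIII, were detected on 0 arrays, as was that of Cox4i2, the form of subunit IV best known from lung. Of their general counterparts, Cox4i1 differed by -0.01 (standard error 0.12), Cox6a1 by -0.22 (standard error 0.13) and Cox8a by -0.17 (standard error 0.09), and none was called (adjusted p of at least 0.307). Cox7b and Cox6c, also small nuclear subunits, differed by -0.31 (standard error 0.15, adjusted p = 0.232) and -0.28 (standard error 0.14, adjusted p = 0.25), with overlapping groups. The Cox7b signal was low, at intensities of 16 to 51 in TgC6hp55 and 25 to 55 in WT livers before normalization. Cox5a differed by -0.14 (adjusted p = 0.403) and Cox7c by 0.12 (adjusted p = 0.524). Of the 12 genes, 9 had a negative log2 fold change, with a median of -0.14.

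Markers of other cells were read beside Cox7a1. Of 7 striated muscle genes none was tested and 6 were detected on no array, among them Acta1 and Myh4, and their summed level was 130 to 141 in TgC6hp55 livers and 131 to 135 in WT livers. The 4 adipocyte genes were detected on no array (79 to 80 in TgC6hp55 and 80 to 83 in WT livers). The probes of the hepatocyte markers Fabp1 and Tat were also detected on no array. A probe without signal therefore does not show that its cell type was absent. Kupffer cell and macrophage genes summed to 802 to 1196 in TgC6hp55 livers and 283 to 981 in WT livers, and of the 5 tested out of 6, 2 rose, including Adgre1 by 0.92 (adjusted p = 0.0324), a call kept in 10 of the 20 alternatives. Endothelial genes summed to 2667 to 2892 in TgC6hp55 livers and 1770 to 2617 in WT livers, and of the 7 tested out of 8, 1 rose: Pecam1 by 0.48 (adjusted p = 0.0132). At an unadjusted p under 0.05, all 5 tested Kupffer cell and macrophage genes (median 0.91) and all 7 tested endothelial genes (median 0.36) were higher, where 13.5% of all features were, so that both lists moved in the same direction as Cox7a1. Stellate cell and fibroblast genes summed to 1963 to 2656 in TgC6hp55 livers and 1487 to 2238 in WT livers, with 0 of 6 tested genes called. Of the cholangiocyte genes 1 and of the lymphocyte genes 2 were tested and 0 called. Of 2 tested erythroid genes, Alas2 fell by 2.59 (adjusted p = 3.05e-05) and Hba-a1 was at 0.65 (adjusted p = 0.326), with a summed level of 3361 to 11391 in TgC6hp55 livers and 3941 to 6914 in WT livers. The part of these cell types in the level of Cox7a1 was not tested.

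Complex V, the ATP synthase, held 15 tested genes, of which 0 were called, with log2 fold changes of -0.14 to 0.15 (median -0.01). All 15 intervals lay within 0.5 of zero. Atp5b, the catalytic beta subunit, had 13.30, 13.32, 13.36 and 13.17 in TgC6hp55 livers and 13.30, 13.21, 13.19 and 13.14 in WT livers, a difference of 0.07 (standard error 0.09, adjusted p = 0.68). Atp5a1, the alpha subunit, differed by -0.14 (standard error 0.10, adjusted p = 0.451), and so did Atp5h, subunit d of the peripheral stalk (standard error 0.10, adjusted p = 0.451).

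Atp5g1, Atp5g2 and Atp5g3 encode the same mature c subunit of the proton-driven rotor from separate genes. Atp5g1 gave 11.80, 11.77, 11.73 and 11.96 in TgC6hp55 livers and 11.54, 11.63, 11.83 and 11.65 in WT livers, the largest positive value of the complex at 0.15 (standard error 0.10, adjusted p = 0.404). The groups overlapped through the third WT liver. Atp5g2 differed by -0.06 (standard error 0.10, adjusted p = 0.787) and Atp5g3 by -0.01 (standard error 0.09, adjusted p = 0.98).

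The family has 14 genes with more than 1 probe and 11 with more than 1 tested probe, and for 4 of these 11 the tested probes differed in sign: Ndufa8 (0.04 and -0.02), Ndufv3 (0.02, -0.04 and 0.07), Cox6b1 (0.05 and -0.01) and Atp5j (-0.04 and 0.08). All of these were within 1 standard error of zero. The 10 untested genes were Ndufs1, Uqcrfs1, Uqcrq, Cox4i2, Cox6a2, Cox6b2, Cox7b2, Cox8b, Cox8c and Atp5k. Their 11 probes had intensities of -7 to 8 and were detected 2 times in 88 readings, both in TgC6hp55 livers. Ndufs1, Uqcrfs1 (the Rieske protein) and Uqcrq belong to every complete complex, and no level is given for them here.

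**Figure D4:**
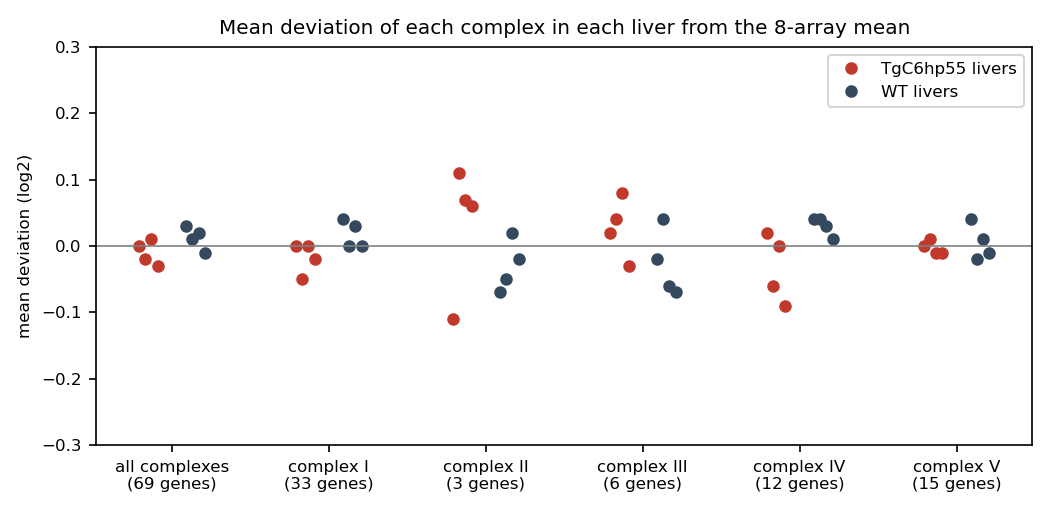
Mean deviation (log2, vertical axis) of the tested genes of each complex in each liver from the mean of the 8 arrays, with TgC6hp55 livers in red on the left and WT livers in dark blue on the right. Over all 69 genes the livers lie between -0.03 and 0.03. The values were quantile normalized, which sets all arrays to the same distribution of intensities.

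Liver by liver, the mean deviation of the 69 genes from their mean over the 8 arrays was 0.00, -0.02, 0.01 and -0.03 in TgC6hp55 livers and 0.03, 0.01, 0.02 and -0.01 in WT livers. The groups overlapped. Complex II showed the widest spread, with -0.11, 0.11, 0.07 and 0.06 in TgC6hp55 livers and -0.07, -0.05, 0.02 and -0.02 in WT livers, over 3 genes.

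Among genes that act on the complexes or feed them, single ones changed. Over all features, 6.48% were higher and 4.51% lower at the same adjusted p under 0.05 (limma). Of 3 further genes of the complexes outside the symbol rule, 1 rose: Atpif1, the inhibitor of ATP hydrolysis by complex V, with 10.10, 10.19, 10.03 and 10.22 in TgC6hp55 livers and 9.49, 9.62, 9.79 and 9.58 in WT livers. The groups were apart, at 0.52 (standard error 0.10, adjusted p = 0.00647), and it failed the threshold with median scaling and with SAM, which also asks for a fold above 1.7. Cyc1, the cytochrome c1 of complex III, differed by -0.08 (adjusted p = 0.716). Of 35 tested assembly factors, 1 rose and 0 fell: Acad9, an acyl-CoA dehydrogenase that also helps to assemble complex I, at 0.69 (standard error 0.15, adjusted p = 0.0121, not called with median scaling, the plain unpaired test or SAM), with 6.65 to 7.48 in TgC6hp55 livers and 6.34 to 6.47 in WT livers.

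Electron carriers and coenzyme Q synthesis had 17 tested genes, of which 1 rose and 0 fell. This was Gpd2, which feeds electrons of glycerol-3-phosphate to ubiquinone, at 0.67 (standard error 0.16, adjusted p = 0.0168), and 14 of the 20 alternatives kept the call. It was lost without the first TgC6hp55 liver, without the second WT liver, with no filter on dim probes, with median scaling, with the plain unpaired test and with SAM. In the citric acid cycle and pyruvate dehydrogenase list, 2 of 19 tested genes rose and 0 fell. Idh2, the mitochondrial NADP-dependent isocitrate dehydrogenase, had 9.50, 9.69, 9.40 and 9.50 in TgC6hp55 livers and 8.63, 8.80, 8.85 and 8.62 in WT livers, with no overlap, at 0.80 (standard error 0.10, adjusted p = 4.33e-04). Suclg2, of the GTP-forming succinyl-CoA ligase, rose by 0.55 (standard error 0.11, adjusted p = 0.00773).

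Regulators of mitochondrial biogenesis included 14 tested genes, of which 1 rose and 0 fell. Tfam, which packages and transcribes mitochondrial DNA, had 7.57, 7.87, 7.73 and 7.69 in TgC6hp55 livers and 7.26, 7.21, 7.09 and 7.35 in WT livers, with no overlap, at 0.48 (standard error 0.10, adjusted p = 0.0105). The factors whose motifs were searched were not called: Esrra at 0.29 (adjusted p = 0.092), Nrf1 at -0.01 (adjusted p = 0.973) and Gabpa at -0.06 (adjusted p = 0.804), while the Yy1 probe was not tested. Ppargc1a, which encodes PGC-1alpha, was at 0.34 (adjusted p = 0.106). Of 70 tested mitochondrial ribosomal protein genes, 0 rose and 1 fell, Mrps18b by 0.37 (adjusted p = 0.0289), and 11 of 20 alternative settings kept that call. Of 17 genes of mitochondrial import and chaperones 0 were called, the smallest p being that of Timm10 (-0.42, adjusted p = 0.0697), and of 5 carriers and uncoupling proteins 0, with Vdac1 at 0.23 (adjusted p = 0.227). At an unadjusted p under 0.05 (limma), in either direction, 24.4% of all features passed. The share was 20.0% for assembly factors, 23.5% for electron carriers and coenzyme Q synthesis and 21.1% for the citric acid cycle list. It was 21.4% for regulators, 14.3% for ribosomal proteins, 17.6% for import and chaperones and 0% for carriers and uncoupling proteins. On this share only the further genes of the complexes lay above, at 33.3%, which was Atpif1 alone. Counting higher genes only, 13.5% of all features passed. Regulators (21.4%), electron carriers and coenzyme Q synthesis (17.6%) and the citric acid cycle list (15.8%) also lay above that. Each rested on 3 higher genes, beside 0, 1 and 1 lower. Lower genes outnumbered higher ones among assembly factors (5 and 2), ribosomal proteins (8 and 2) and import and chaperones (2 and 1). These tilts were not tested. With median scaling none of the genes called in these mitochondrial lists passed, with SAM only Idh2 did, and all kept their direction in the alternatives. Both settings called fewer features in all. Median scaling called 151 higher and 140 lower and SAM 222 and 131, against 553 and 385 in the main test.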

How the data were processed

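Arrays of 4 TgC6hp55 and 4 WT livers were analysed. The authors processed them in GenomeStudio 2011.1, per the labels, and deposited intensities without normalization between arrays, together with detection p-values, and intensities after cubic spline normalization. Negative values show that background had been subtracted. No genome build is given in the sources used here. All TgC6hp55 descriptions carry the same number, so the title's replicate number gave each column its liver.

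The unnormalized intensities were corrected by normexp from the detection p-values, with an offset of 16, then quantile normalized and expressed as log2 values (neqc in limma 3.58.1, R 4.3.3). The p-value filter kept 11100 of 25697 probes. Changes were tested with lmFit and eBayes over 8540 features and adjusted by Benjamini-Hochberg. The script was tested on simulated data. Genes were named by call, by size of change within a complex, as core subunits, as isoform pairs, for probes of opposite sign, and, in other lists, as called genes or the gene with the smallest p. The members and lists were chosen with earlier results of these data known. Alternatives covered background correction, scaling, the authors' spline values, filters, variance models, a replicate block, a plain unpaired test, SAM and each liver left out. The numbers of arrays limit precision.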

Additional observations from a re-analysis of the deposited data

Results flagged for a closer look

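Within a group of 4 livers, 6 of the 138 groups (69 genes in 2 groups) held a liver far from the other 3 by Dixon's criterion. Chance flags about 1 group in 20. Atp5pb, subunit b of the ATP synthase, was lowest in TgC6hp55 liver 2, at a log2 level of 9.63, with the next at 9.97. Cox4i1 was highest in WT liver 4, at 12.49 beside 12.27. Cox6a1 and Cox6c were lowest in WT liver 3, at 11.65 (next 11.74) and 10.91 (next 11.08). Ndufb9 was highest in TgC6hp55 liver 4, at 8.40 beside 8.19, and Ndufs7 lowest in TgC6hp55 liver 3, at 10.44 beside 10.56. None of these genes passed the threshold.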

How the results depend on the processing

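Across 20 alternatives Cox7a1 stayed higher in every one and past the threshold in all but median scaling, where its log2 fold change was 0.71 (standard error 0.19, adjusted p = 0.0518) and no gene of the family was called higher (0). In the others its adjusted p ran between 0.0017 and 0.0483, and with a liver left out between 0.0017 and 0.0204. Over all features median scaling called 151 higher and 140 lower, against 553 and 385 in the main test. Median scaling over all probes gave a median of -0.16 for the 69 genes, beside -0.06 for all features, and of -0.17, -0.14, -0.10, -0.27 and -0.16 for complexes I, II, III, IV and V. Median scaling over the probes detected on all arrays, added after the data were seen, gave -0.09 for the 69 genes, beside 0.01 for all features, and -0.10, -0.07, -0.03, -0.20 and -0.09 for complexes I, II, III, IV and V, and kept the call of Cox7a1 (adjusted p = 0.00784). The cause was not tested. Without a filter on dim probes 2 genes were called higher and the median of complex IV was -0.04, over more genes. Also 2 were called higher with a detection p under 0.01 and with a variance trend, Sdhc in each case, and 3 with the plain unpaired test (Sdhc and Ndufa7). With array weights 1 gene, Ndufb9, was called lower (adjusted p = 0.0348). With a liver left out, 0 to 1 were called lower: Ndufb9 without TgC6hp55 liver 4 (adjusted p = 0.0495) and Cox7b without WT liver 4 (0.0487). In all, 4 of the 68 uncalled genes were called in at least 1 alternative, and 31 changed sign in at least 1. With the replicate number as a block, Cox7a1 had an adjusted p of 0.0115 and 1 gene was called higher. Same-numbered livers correlated at 0.158, 0.122, 0.011 and 0.112 in their deviations from the group means. For TgC6hp55 livers 1, 2 and 4, though not 3, the WT liver with the highest correlation was that of the same number. The main test did not pair the livers, and whether the numbers stand for a pairing was not settled.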
